A study of Homo sapiens with 24 samples.

Results

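The 36 genes described here encode enzymes and transporters of glycolysis (24 genes) and products of the transcriptional response to low oxygen (12 genes). They were chosen by symbol and found among the 58266 gene symbols of 24 expression tables from HEK293A, a human embryonic kidney line that grows attached. Cells were wild type (WT) or carried the genotype labels RAP2A/B/C-tKO, LATS1/2-dKO or YAP/TAZ-dKO, shortened to RAP2 tKO, LATS dKO or YAP/TAZ dKO. All were kept in DMEM with serum and antibiotics and seeded on fibronectin-coated hydrogels of 1 kPa (soft) or 40 kPa (stiff), with no further treatment. Each of the 8 groups had 3 libraries, which the design text calls biological replicates. The sources used here do not give how the knockout lines were made or how many clones stood behind each. A difference between genotypes and one between clones therefore cannot be told apart.

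Glycolysis converts glucose to pyruvate in the cytosol. Glucose enters through GLUT transporters, is trapped by hexokinase, passes the control step of phosphofructokinase and is split by aldolase into trioses. The lower steps yield ATP and pyruvate, which lactate dehydrogenase reduces to lactate or the pyruvate dehydrogenase complex passes on to the citric acid cycle. Many of these steps have several enzyme forms encoded by separate genes. In low oxygen the prolyl hydroxylases that mark HIF alpha subunits for destruction through VHL lose activity, and stabilised HIF binds short elements near genes of glucose uptake, glycolysis, blood vessel growth and matrix modification. The Hippo kinases LATS1 and LATS2 phosphorylate YAP and TAZ (gene WWTR1), coactivators that they hold back, and the series examines how this pathway and the RAP2 GTPases relate to the response to matrix stiffness.

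Levels are FPKM, fragments scaled by transcript length and library depth. Depth estimated from the deposited confidence intervals was 18.29 to 39.75 M fragments per library, and LATS dKO on 40 kPa replicate 1 was the smallest. In 2 libraries, replicate 3 of RAP2 tKO on 40 kPa and replicate 1 of LATS dKO on 40 kPa, the deviation from the group mean tracked gene GC content (rank correlation across genes -0.597 and -0.567, given as a description). Its size was at most 0.333 for the 18 libraries outside those groups. The remaining libraries of those groups stood at 0.383 to 0.536, and since deviations from a mean of 3 offset each other, this value alone does not single out a library. The SD of the log2 difference between replicates was 0.680 and 0.702 in pairs with the RAP2 tKO library and 0.501 without it. In LATS dKO on 40 kPa it was 0.695 and 0.685 with replicate 1 and 0.564 without it. Calls on members that differ without these GC-skewed libraries are given beside those made with all libraries. The genotype labels showed in part in the RNA: on the log2(FPKM + 1) scale YAP1 (-2.18) and WWTR1 (-1.29) fell in YAP/TAZ dKO cells, and LATS1 (-1.08) fell in LATS dKO cells. RAP2A (-0.31) fell in RAP2 tKO cells, RAP2B was higher there (0.26), and RAP2C and LATS2 were not called in their own lines. An edit can leave the RNA in place, so these levels do not test the labels of the lines where RNA persisted. Of 7 markers listed for HEK293 cells, NEFM lay below 0.1 FPKM in all 24 libraries and PAX2 between 0.058 and 1.30 FPKM. KRT8 (28.0 to 536 FPKM), KRT18 (45.8 to 451 FPKM), VIM (134 to 292 FPKM), NEFL (10.7 to 554 FPKM) and LIN28B (22.5 to 32.2 FPKM) were present in all. In YAP/TAZ dKO cells NEFL rose by 4.85, the other tested markers rose by less, and KRT8 (-2.50), KRT18 (-1.80) and VIM (-0.50) fell. In LATS dKO cells KRT8 (1.42), KRT18 (1.18) and NEFL (0.19) rose and PAX2 (-0.26) fell. In RAP2 tKO cells KRT8 (0.66), KRT18 (0.55) and VIM (0.24) rose and NEFL (-0.34) fell. Of the markers of other cell types, 3 of 3 endothelial, 4 of 5 immune, 4 of 6 fibroblast and 4 of 5 erythroid ones found stayed below 1 FPKM in all libraries. The exceptions were CD68 (2.07 to 6.62 FPKM), COL1A1 (3.31 to 7.87 FPKM), COL3A1 (0 to 11.2 FPKM) and HBA1 (0 to 1.04 FPKM). COL3A1, a fibrillar collagen, rose in LATS dKO cells (3.16, adjusted p = 5.45e-17), and the part of these markers in the results was not tested.

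A few glycolytic enzymes were among the abundant messages of these cells. LDHB (2028 to 3342 FPKM), ENO1 (2025 to 2727 FPKM), ALDOA (1730 to 3102 FPKM) and GAPDH (1478 to 2389 FPKM) led the list over the 24 libraries. The transporter SLC2A3 (2.28 to 20.3 FPKM) and the bifunctional regulator PFKFB4 (0.91 to 3.76 FPKM) were low. The hypoxia-response genes were mostly moderate, with NDRG1, a stress-induced cytoplasmic protein, as the exception at 207 to 452 FPKM. CA9, a carbonic anhydrase whose transcription depends closely on HIF, was listed at 0 in 18 of 24 libraries and reached 0.269 FPKM. SLC16A3, the lactate exporter MCT4, reached 1 FPKM in 1 library only. It lay at 0.498 to 1.09 FPKM in WT and, without overlap, at 0.0164 to 0.145 FPKM in YAP/TAZ dKO cells, levels near the floor. These 2 genes did not pass the filter of 1 FPKM in at least 3 libraries, and 34 members were tested. GAPDH, PGK1, PGAM1, ENO1, LDHA, TPI1, PKM, ALDOA and BNIP3 have near-identical copies in the genome. How shared fragments were assigned is unknown here, so their levels are uncertain.

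Promoters of 4 members are shown because these genes moved in opposite directions in LATS dKO cells, HK2 and ADM being higher and GAPDH and ENO2 lower, as described further on. Each is the 250 bases before the transcript start, on the plus strand of GRCh38.p14 from RefSeq, written 5′ to 3′. Capitals mark the core of the hypoxia response element, ACGTG or GCGTG, or its reverse complement, CACGT or CACGC. In GAPDH the capitals cover overlapping copies on both strands that form CACGTG.
HK2, chr2:74833877-74834126: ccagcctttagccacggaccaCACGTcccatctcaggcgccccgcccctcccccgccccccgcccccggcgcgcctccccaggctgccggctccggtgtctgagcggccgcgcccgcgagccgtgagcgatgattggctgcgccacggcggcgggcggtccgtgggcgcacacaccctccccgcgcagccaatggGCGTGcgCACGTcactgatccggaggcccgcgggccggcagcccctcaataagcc
ADM, chr11:10304823-10305072: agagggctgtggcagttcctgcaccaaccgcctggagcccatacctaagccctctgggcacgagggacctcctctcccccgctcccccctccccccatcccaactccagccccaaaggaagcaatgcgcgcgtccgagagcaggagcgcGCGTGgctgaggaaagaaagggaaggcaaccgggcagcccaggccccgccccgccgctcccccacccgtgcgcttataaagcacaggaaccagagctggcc
GAPDH, chr12:6535014-6535263: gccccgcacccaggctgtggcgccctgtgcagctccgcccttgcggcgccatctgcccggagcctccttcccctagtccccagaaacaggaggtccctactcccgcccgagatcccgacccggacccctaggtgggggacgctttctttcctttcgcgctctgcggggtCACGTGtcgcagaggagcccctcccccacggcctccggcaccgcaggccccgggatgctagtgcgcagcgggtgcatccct
ENO2, chr12:6914330-6914579: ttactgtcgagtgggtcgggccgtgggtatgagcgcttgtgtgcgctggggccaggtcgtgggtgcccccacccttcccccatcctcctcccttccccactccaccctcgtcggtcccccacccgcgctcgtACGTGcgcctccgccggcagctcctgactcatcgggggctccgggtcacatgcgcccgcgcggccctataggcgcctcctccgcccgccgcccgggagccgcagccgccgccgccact
The core occurred 3 times in the HK2 window and once each in those of ADM and ENO2. RefSeq windows from 250 bases before to 50 bases after a start were matched for 32 of the 36 members, by symbol. Only the 250 bases before each start were searched, on both strands, for the core and the other motifs named below. The core stood there in 35 of the members' 59 windows (59.32%) and in 15172 of all 35116 windows (43.21%). ACGTG alone was in 38.98% of the members' windows and 18.51% of all, and CACGTG, which contains it, in 13.56% and 6.34%. GGAATG, a motif of the TEAD partners of YAP and TAZ, was in 4 of the 59 (6.78%) and in 11.89% of all. Several members have more than 1 window, and a match is only a string of letters. SLC2A3, VEGFA, BNIP3L and NDRG1 had no entry.

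Most of the 41 calls on members came from the genotype comparisons, and 10 of the 34 members tested were called in no contrast with all libraries. A call is an adjusted p below 0.05 from limma on log2(FPKM + 1), with Benjamini-Hochberg adjustment over all 15828 genes tested. A genotype difference is the mean of the differences on 1 and 40 kPa. In RAP2 tKO cells 6 members were higher and 5 lower than in WT, where 16.0% of all genes were called (7.40% higher, 8.57% lower). In LATS dKO cells 3 were higher and 7 lower (of all genes 33.9% were called, 16.0% higher and 17.8% lower), and in YAP/TAZ dKO cells 5 were higher and 12 lower (of all genes 50.6% were called, 23.6% higher and 27.0% lower). The share of the 34 members called was 32.35% in RAP2 tKO, 29.41% in LATS dKO and, at 17 members, near that of all genes in YAP/TAZ dKO cells. Without the 2 GC-skewed libraries 18 members were called in each of RAP2 tKO and LATS dKO cells, where 27.6% and 42.5% of all genes were called, and 24 in YAP/TAZ dKO cells, where 61.3% were. No member call was lost. The members added were ENO1 (-0.08), GAPDH (0.06), PFKL, PFKM (-0.21), PFKP (-0.14), PGK1 (-0.10) and SLC2A1 in RAP2 tKO cells. Those added in LATS dKO cells were ALDOA, HK1, KDM3A (-0.34), P4HA1 (-0.08), PDK3 (-0.12), PFKFB3 (-0.23), PFKL and PGAM1. Those added in YAP/TAZ dKO cells were ADM (-0.16), ALDOA, EGLN3 (0.14), ENO1 (0.06), HK1, PFKL and SLC2A1 (0.10). The members' median change was 0.04 in RAP2 tKO, -0.09 in LATS dKO and -0.02 in YAP/TAZ dKO cells, where that of all genes was -0.0002, -0.01 and 0.001. The 3 comparisons share their WT libraries. Of the 38 genotype calls on members, 14 were lost on 1 kPa alone and 12 on 40 kPa alone. Those lost on 1 kPa were ADM, GPI, HK2, NDRG1, P4HA1, PDK1, PDK3 and PFKFB3 in RAP2 tKO, ENO2 and LDHB in LATS dKO, and ENO2, KDM3A, PGK1 and TPI1 in YAP/TAZ dKO cells. Those lost on 40 kPa were ADM, NDRG1, P4HA1, P4HA2, PFKFB3 and VEGFA in RAP2 tKO, LDHB in LATS dKO, and ALDOC, ENO2, P4HA2, PFKFB4 and PGK1 in YAP/TAZ dKO cells.

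**Figure D1:**
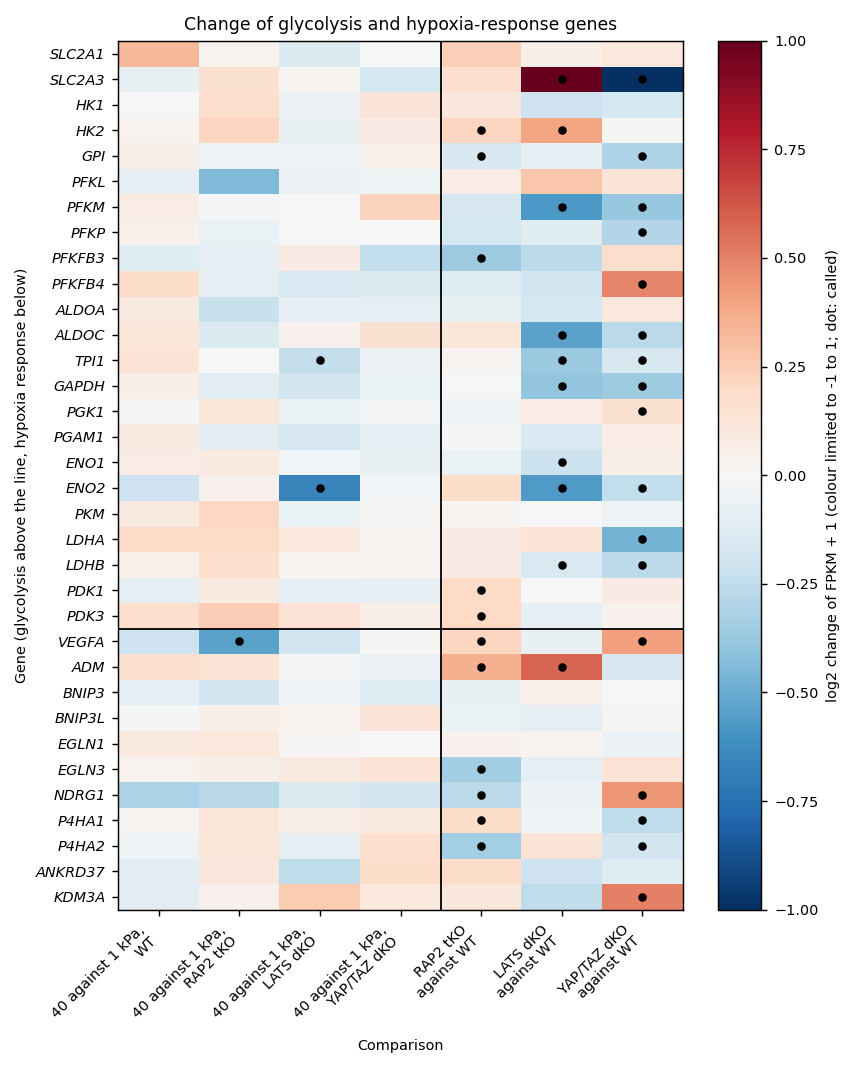
Log2 change (FPKM + 1) of the 34 members tested, in rows, for the stiffness comparison in each genotype and for each knockout line against WT, in columns; red is higher, blue lower, and a dot marks an adjusted p below 0.05. Dots are concentrated in the 3 columns on the right, and SLC2A3 has the strongest colours, higher in LATS dKO (1.38) and lower in YAP/TAZ dKO cells (-1.04).

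Glucose transporters differed in which gene moved. SLC2A3 encodes GLUT3, a high-affinity glucose transporter (chromosome 12, 8071826 to 8088871 in hg19). Its level was 5.02, 6.40 and 7.98 FPKM (lowest, median and highest of 6 libraries) in WT, 6.01, 7.35 and 8.32 FPKM in RAP2 tKO, 16.6, 17.9 and 20.3 FPKM in LATS dKO, and 2.28, 2.62 and 3.14 FPKM in YAP/TAZ dKO cells. The LATS dKO libraries lay above and the YAP/TAZ dKO libraries below all WT libraries, while WT and RAP2 tKO overlapped. The change was 1.38 (SE 0.085, adjusted p = 3.65e-10) in LATS dKO and -1.04 (SE 0.085, adjusted p = 7.52e-09) in YAP/TAZ dKO cells, on a scale that understates low genes. Both were called on each stiffness alone, at 1.33 and 1.42 in LATS dKO and -0.99 and -1.09 in YAP/TAZ dKO cells on 1 and 40 kPa. The near-identical neighbour SLC2A14 lay at 0.276 to 0.516 FPKM in LATS dKO and 0.054 to 0.266 FPKM in WT cells. SLC2A1, which encodes the widespread transporter GLUT1, had a median of 33.4 FPKM in WT, 41.2 FPKM in RAP2 tKO, 35.6 FPKM in LATS dKO and 37.1 FPKM in YAP/TAZ dKO cells. With all libraries it was called in no genotype contrast. Its change in RAP2 tKO cells was 0.24 (adjusted p = 0.127), and 0.38 (adjusted p = 1.33e-05) without the 2 GC-skewed libraries.

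Hexokinase and phosphofructokinase genes moved form by form. HK2, the inducible hexokinase of growing cells, was at 11.8, 12.3 and 12.9 FPKM (lowest, median, highest) in WT and at 15.5, 16.7 and 17.3 FPKM in LATS dKO cells, with no overlap. It rose by 0.39 there (SE 0.047, adjusted p = 2.36e-06). In RAP2 tKO cells HK2 was at 12.8, 14.6 and 16.3 FPKM, overlapping WT at the lower end, and rose by 0.21 (adjusted p = 0.00352). That call was lost on 1 kPa alone (0.13, adjusted p = 0.316) and held on 40 kPa alone (0.30, adjusted p = 0.00689). HK1, the housekeeping form, was called in no line with all libraries, and without the 2 GC-skewed ones was lower in LATS dKO (-0.24, adjusted p = 0.0122) and YAP/TAZ dKO cells (-0.18, adjusted p = 0.0301).
PFKM, the muscle-type phosphofructokinase, was at 96.7, 104 and 115 FPKM in WT, 65.8, 70.2 and 73.9 FPKM in LATS dKO and 69.0, 78.7 and 91.8 FPKM in YAP/TAZ dKO cells. All libraries of both lines were below all WT libraries, by -0.57 (adjusted p = 1.54e-07) and -0.38 (adjusted p = 1.12e-05). PFKP, the platelet type, fell in YAP/TAZ dKO cells from 237 to 262 FPKM in WT to 199 to 214 FPKM (-0.29, adjusted p = 6.81e-04). PFKL, the liver type, is rich in GC (64.06% of its transcript). It was not called in LATS dKO cells (0.27, adjusted p = 0.238), but was without the 2 GC-skewed libraries (0.38, adjusted p = 1.82e-05), which also gave calls in RAP2 tKO (0.29, adjusted p = 6.42e-04) and YAP/TAZ dKO cells (0.13, adjusted p = 0.0305).
The PFKFB enzymes set the level of fructose 2,6-bisphosphate, the allosteric activator of phosphofructokinase. PFKFB4 rose in YAP/TAZ dKO cells from a median of 2.00 to 3.11 FPKM without overlap (0.48, adjusted p = 0.00144), at 0.65 on 1 kPa and 0.32 on 40 kPa, the latter not called (adjusted p = 0.124). PFKFB3 fell in RAP2 tKO cells (-0.37, adjusted p = 0.035), with overlapping libraries, a call lost without any of 8 of the 12 libraries (adjusted p up to 0.0921).

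The enzymes of the triose steps fell in LATS dKO cells in several places. GAPDH, the oxidising step, was at 2148, 2262 and 2337 FPKM (lowest, median, highest) in WT, 1478, 1718 and 1876 FPKM in LATS dKO and 1695, 1754 and 1813 FPKM in YAP/TAZ dKO cells. Neither line overlapped WT. The change was -0.39 (SE 0.046, adjusted p = 2.22e-06) in LATS dKO and -0.36 (SE 0.046, adjusted p = 3.44e-06) in YAP/TAZ dKO cells. GAPDH is a common reference gene, and it differed here by 1.31-fold and 1.28-fold. TPI1, the isomerase that interconverts the trioses, had a median of 904 FPKM in WT, 703 FPKM in LATS dKO and 788 FPKM in YAP/TAZ dKO cells. It fell by 0.37 (adjusted p = 1.77e-07) and by 0.16 (adjusted p = 9.76e-04), without overlap in LATS dKO cells and with overlap in YAP/TAZ dKO cells, where 1 kPa alone gave no call (-0.06, adjusted p = 0.349).
ALDOC, the brain-type aldolase, fell from a WT median of 7.71 FPKM to 4.98 FPKM in LATS dKO (-0.53, adjusted p = 1.15e-05) and 6.21 FPKM in YAP/TAZ dKO cells (-0.27, adjusted p = 0.00422). ALDOA, the main form, was called in no line with all libraries, and without the 2 GC-skewed ones was lower in LATS dKO (-0.14) and higher in YAP/TAZ dKO cells (0.11). ENO2, the neuronal enolase, had a WT median of 16.0 FPKM and fell to 11.0 FPKM in LATS dKO cells (-0.57, adjusted p = 1.31e-04), with overlap. The change was -0.34 on 1 kPa, not called (adjusted p = 0.0816), and -0.80 on 40 kPa. It fell to 13.5 FPKM in YAP/TAZ dKO cells (-0.25, adjusted p = 0.0378), a call lost without any of 7 of the 12 libraries (adjusted p up to 0.122). ENO1, the main enolase, fell in LATS dKO cells from 2355 to 2620 FPKM in WT to 2025 to 2337 FPKM, without overlap (-0.21, adjusted p = 4.46e-05). In YAP/TAZ dKO cells ENO1 was called on 1 kPa alone (0.13, adjusted p = 0.0286) and not on 40 kPa (-0.013, adjusted p = 0.859). PGK1, which makes ATP, was higher in YAP/TAZ dKO cells by 0.15 (adjusted p = 0.0249), and this was lost without WT 1 kPa replicate 2, WT 40 kPa replicate 1 or YAP/TAZ dKO 1 kPa replicate 2 (adjusted p up to 0.0636). GPI, the isomerase after hexokinase, fell in YAP/TAZ dKO cells from a median of 286 to 231 FPKM without overlap (-0.31, adjusted p = 2.20e-05). Its fall in RAP2 tKO cells (-0.16, adjusted p = 0.0231) was lost without WT replicate 1 of either stiffness or RAP2 tKO 1 kPa replicate 2 or 3 (adjusted p up to 0.0567). PKM was not called over both stiffnesses, on either alone or without the 2 GC-skewed libraries. PGAM1 was not called over both stiffnesses, but was lower in LATS dKO cells on 40 kPa alone (-0.28, adjusted p = 0.027) and without the 2 GC-skewed libraries (-0.11, adjusted p = 0.0249).

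At the fate of pyruvate, LDHA fell in YAP/TAZ dKO cells. LDHA, the form that favours lactate, was at 797, 948 and 1043 FPKM (lowest, median, highest) in WT and 626, 664 and 721 FPKM in YAP/TAZ dKO cells, with no overlap (-0.48, SE 0.079, adjusted p = 5.44e-05). In LATS dKO cells its median was 1011 FPKM and it was not called. LDHB, the form that favours pyruvate, fell in YAP/TAZ dKO cells from a median of 2511 to 2105 FPKM without overlap (-0.26, adjusted p = 5.56e-04). In LATS dKO cells LDHB fell by 0.15 (adjusted p = 0.0368), a call lost without any of 9 of the 12 libraries (adjusted p up to 0.0968). The kinases PDK1 and PDK3, which inhibit pyruvate dehydrogenase, rose in RAP2 tKO cells by 0.20 each (adjusted p = 0.0335 and 0.0112). Both ranges overlapped WT, and the PDK1 call was lost without any of 6 of the 12 libraries (adjusted p up to 0.0932).

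**Figure D2:**
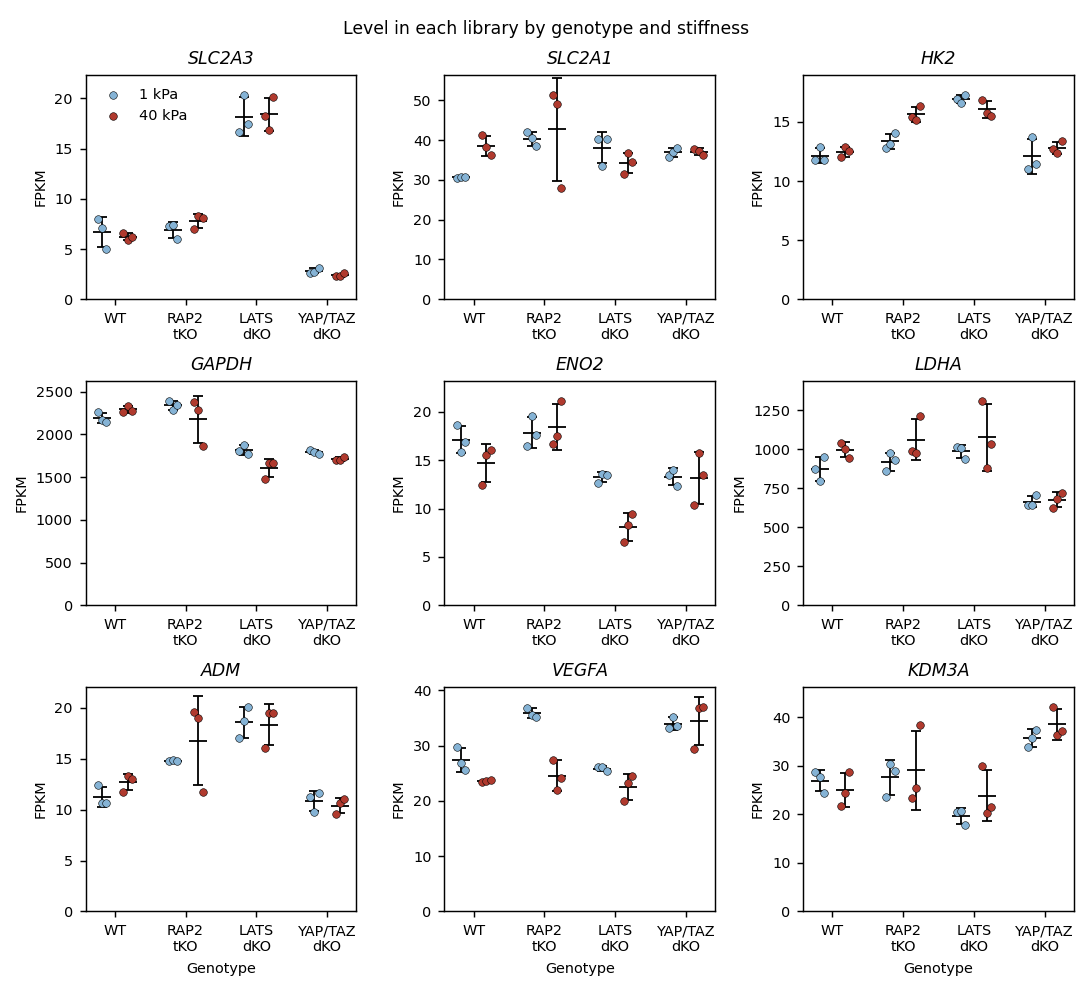
FPKM of 9 members in each of the 24 libraries (points; blue 1 kPa, red 40 kPa) by genotype, with the group mean as a bar and the SD of 3 libraries as whiskers. SLC2A3 separates the LATS dKO and YAP/TAZ dKO libraries from WT in opposite directions, LDHA is low and KDM3A high in YAP/TAZ dKO cells, and SLC2A1 has 1 low library in RAP2 tKO cells on 40 kPa (27.9 FPKM).

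Among the hypoxia-response genes no direction was shared. ADM encodes the vasodilator adrenomedullin (chromosome 11, 10326227 to 10328944 in hg19). It was at 10.7, 12.1 and 13.3 FPKM (lowest, median, highest) in WT, 11.8, 14.8 and 19.6 FPKM in RAP2 tKO, 16.0, 19.1 and 20.1 FPKM in LATS dKO and 9.56, 10.8 and 11.6 FPKM in YAP/TAZ dKO cells. Only the LATS dKO libraries stood clear of WT. ADM rose by 0.58 in LATS dKO (SE 0.095, adjusted p = 9.36e-05) and by 0.36 in RAP2 tKO cells (SE 0.095, adjusted p = 0.0141). For RAP2 tKO neither stiffness alone gave a call (0.37, adjusted p = 0.118, and 0.34, adjusted p = 0.122), and the low library was the GC-skewed replicate 3. Without the 2 GC-skewed libraries the rise was 0.47 (adjusted p = 1.06e-05).
VEGFA, the main growth factor of blood vessels, was at 23.4, 24.6 and 29.7 FPKM in WT and 29.4, 34.4 and 36.9 FPKM in YAP/TAZ dKO cells, an overlap of the extremes only. It rose there by 0.41 (SE 0.062, adjusted p = 1.98e-05). KDM3A, a HIF-induced histone demethylase, was at 21.8, 26.0 and 28.7 FPKM in WT and 33.8, 36.7 and 42.0 FPKM in YAP/TAZ dKO cells, without overlap (0.50, adjusted p = 0.00109). The call was lost on 1 kPa alone (0.40, adjusted p = 0.0593). NDRG1 rose in YAP/TAZ dKO cells from 263, 312 and 353 FPKM to 378, 423 and 452 FPKM without overlap (0.44, adjusted p = 1.85e-05), and fell in RAP2 tKO cells to 207, 272 and 285 FPKM with overlap (-0.27, adjusted p = 0.00767). Called on both stiffnesses together, the fall was called on neither alone (adjusted p = 0.0768 and 0.0954).

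The prolyl 4-hydroxylase subunits P4HA1 and P4HA2 modify collagen. P4HA1 fell in YAP/TAZ dKO cells from 10.3 to 10.7 FPKM in WT to 8.21 to 9.09 FPKM (-0.25, adjusted p = 7.96e-04). Its rise in RAP2 tKO cells (0.18, adjusted p = 0.0288) was lost without any of 7 of the 12 libraries (adjusted p up to 0.0587). P4HA2 fell in RAP2 tKO cells from 9.19, 10.1 and 10.8 FPKM to 7.00, 7.67 and 8.91 FPKM, without overlap (-0.34, adjusted p = 0.00255), and the call was lost on 40 kPa alone (-0.25, adjusted p = 0.128). It also fell in YAP/TAZ dKO cells (-0.19, adjusted p = 0.0311), where it was lost without any of 6 of the 12 libraries (adjusted p up to 0.0912).
EGLN3, an oxygen-sensing prolyl hydroxylase that HIF induces, fell in RAP2 tKO cells from 6.69, 7.45 and 8.03 FPKM to 5.19, 5.47 and 6.95 FPKM (-0.34, SE 0.067, adjusted p = 0.00139). The highest RAP2 tKO library, the only one that overlapped WT, was the GC-skewed replicate 3. EGLN3 was the only one of the 11 calls of this line that held in all 21 alternatives run. Of the 10 calls in LATS dKO cells 8 did so, and of the 17 in YAP/TAZ dKO cells 10. BNIP3 and BNIP3L, which mark mitochondria for removal, EGLN1, the main oxygen sensor, and ANKRD37 were called in no contrast.

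On stiff against soft hydrogels few members moved. No member was called in WT or in YAP/TAZ dKO cells, against 0.986% and 0.347% of all genes. At an unadjusted p below 0.05 (limma) there were 5 of 34 members in WT (14.7%, against 12.2% of all genes) and 1 of 34 in YAP/TAZ dKO cells (2.94%, against 7.7%). VEGFA was lower in RAP2 tKO cells, where 3.87% of all genes were called (0.986% higher, 2.88% lower). ENO2 and TPI1 were lower in LATS dKO cells, where 0.708% of all genes were called (0.0885% higher, 0.619% lower). In WT the YAP and TAZ targets CTGF, CYR61, ANKRD1 and AMOTL2 all rose, CTGF by 1.64. The members' median change was 0.04 in WT, 0.05 in RAP2 tKO, -0.05 in LATS dKO and 0.001 in YAP/TAZ dKO cells, and that of all genes was -0.03, -0.04, -0.03 and -0.01.

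VEGFA in RAP2 tKO cells was at 36.9, 35.6 and 35.2 FPKM on 1 kPa and 27.5, 21.9 and 24.2 FPKM on 40 kPa. All soft libraries were above all stiff ones. The change was -0.54 (SE 0.088, adjusted p = 0.00219), and -0.53 (adjusted p = 0.00304) without the 2 GC-skewed libraries. It was not called when only these 2 groups were fitted (adjusted p = 0.258). In WT, VEGFA was at 29.7, 26.9 and 25.5 FPKM on 1 kPa and 23.4, 23.7 and 23.7 FPKM on 40 kPa, a change of -0.20 (adjusted p = 0.339). The difference between these responses was -0.33 (adjusted p = 0.683). The genotype difference of VEGFA in RAP2 tKO cells was called on 1 kPa (0.38, adjusted p = 0.012) and not on 40 kPa (0.05, adjusted p = 0.78). Averaged over both it was 0.22 (adjusted p = 0.0234) and was lost without WT 1 kPa replicate 2 or 3 or without RAP2 tKO replicate 1 of either stiffness (adjusted p up to 0.063).

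In LATS dKO cells ENO2 was at 12.7, 13.6 and 13.5 FPKM on 1 kPa and 6.51, 8.31 and 9.39 FPKM on 40 kPa (-0.66, SE 0.135, adjusted p = 0.035). TPI1 was at 738, 760 and 745 FPKM on 1 kPa and 576, 668 and 656 FPKM on 40 kPa (-0.24, SE 0.051, adjusted p = 0.0412). In both genes the groups did not overlap and the lowest library was the GC-skewed replicate 1. The ENO2 call was lost without any of 5 of the 6 libraries (adjusted p up to 0.142), and the TPI1 call without any of 4 of the 6 (adjusted p up to 0.165). Replicate 1 on 40 kPa was among these libraries for both ENO2 and TPI1. With both GC-skewed libraries left out they were called at -0.53 (adjusted p = 0.0398) and -0.18 (adjusted p = 0.0393), and GAPDH with them (-0.13, adjusted p = 0.0362), where 2.98% of all genes were called.

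With those 2 libraries left out, members called on 40 against 1 kPa included some in groups that lost no library. In WT these were SLC2A1, NDRG1, PDK3 and TPI1, where 6.36% of all genes were called. SLC2A1 in WT was at 30.6, 30.7 and 30.6 FPKM on 1 kPa and 41.2, 38.3 and 36.2 FPKM on 40 kPa, with all stiff libraries higher. Its change was 0.32 in both fits, with SE 0.146 (adjusted p = 0.377) with all libraries and SE 0.061 (adjusted p = 0.00556) without the 2. NDRG1 in WT was at 348, 353 and 333 FPKM on 1 kPa and 291, 263 and 278 FPKM on 40 kPa, with all stiff libraries lower (-0.31, adjusted p = 0.134 and 0.0013). Without the 2 libraries NDRG1 was also called in RAP2 tKO (-0.20, 5.02% of all genes called) and in YAP/TAZ dKO cells (-0.19, 2.47% of all genes called). SLC2A1 in RAP2 tKO cells was at 42.0, 40.5 and 38.5 FPKM on 1 kPa and at 51.4, 49.1 and, in the GC-skewed library, 27.9 FPKM on 40 kPa. Its change was 0.04 (adjusted p = 0.919) with all libraries and was called without the skewed ones (0.31, adjusted p = 0.0148). ADM likewise changed there by 0.14 (adjusted p = 0.565) with all libraries and by 0.36 (adjusted p = 0.0186) without the skewed ones. PFKL (19.6 against 50.2 and 50.5 FPKM) and ALDOA (1730 against 2795 and 2774 FPKM) were likewise low in that library.

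No difference of the stiffness response between a knockout line and WT was called for a member with all libraries, where 0.0505% of all genes were called for RAP2 tKO, 0.0632% for LATS dKO and 0.392% for YAP/TAZ dKO. At an unadjusted p below 0.05 (limma) there were 1 member for RAP2 tKO (2.94%, against 6.41% of all genes), 4 for LATS dKO (11.8%, against 9.06%) and 2 for YAP/TAZ dKO (5.88%, against 8.83%). The smallest adjusted p was that of TPI1 in LATS dKO cells, whose response was lower than in WT by 0.38 (adjusted p = 0.0603). In WT, TPI1 was at 897, 850 and 805 FPKM on 1 kPa and 935, 961 and 910 FPKM on 40 kPa, the order opposite to that in LATS dKO cells. Without the 2 GC-skewed libraries TPI1 (-0.31, adjusted p = 0.0171), GAPDH (-0.19), SLC2A1 (-0.41) and NDRG1 (0.32) were called in LATS dKO cells (1.33% of all genes called), and ALDOA (-0.19) in YAP/TAZ dKO cells (2.61% of all genes called).

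The balance between forms of a step was compared as a ratio of FPKM within each library, for 5 pairs and 3 lines (15 exact two-sided permutation tests on log2 ratios over 6 against 6 libraries, p-values adjusted over the 15). The smallest p these can give is 0.0022. The pairs were chosen after the levels were seen. SLC2A3 to SLC2A1 had a median of 0.168 in WT (0.155 to 0.261), 0.516 in LATS dKO (0.413 to 0.606) and 0.0724 in YAP/TAZ dKO cells (0.0613 to 0.0825), the 2 lines standing on opposite sides of WT without overlap (adjusted exact p = 0.0065 each). HK2 to HK1 had a median of 0.171 in WT and 0.251 in LATS dKO cells, higher without overlap (adjusted exact p = 0.0065). PFKM to PFKP had a median of 0.415 in WT and 0.303 in LATS dKO cells, lower without overlap (adjusted exact p = 0.0065). LDHA to LDHB had a median of 0.381 in WT, 0.447 in LATS dKO (adjusted exact p = 0.0065) and 0.321 in YAP/TAZ dKO cells (adjusted exact p = 0.0162, with overlap). ENO2 to ENO1 was the ratio that passed in RAP2 tKO cells, at 0.0075 against 0.0065 (adjusted exact p = 0.0464, with overlap). It was lower than in WT but did not pass in LATS dKO (0.0050, adjusted exact p = 0.0909) or YAP/TAZ dKO cells (0.0051, adjusted exact p = 0.0609).

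**Figure D3:**
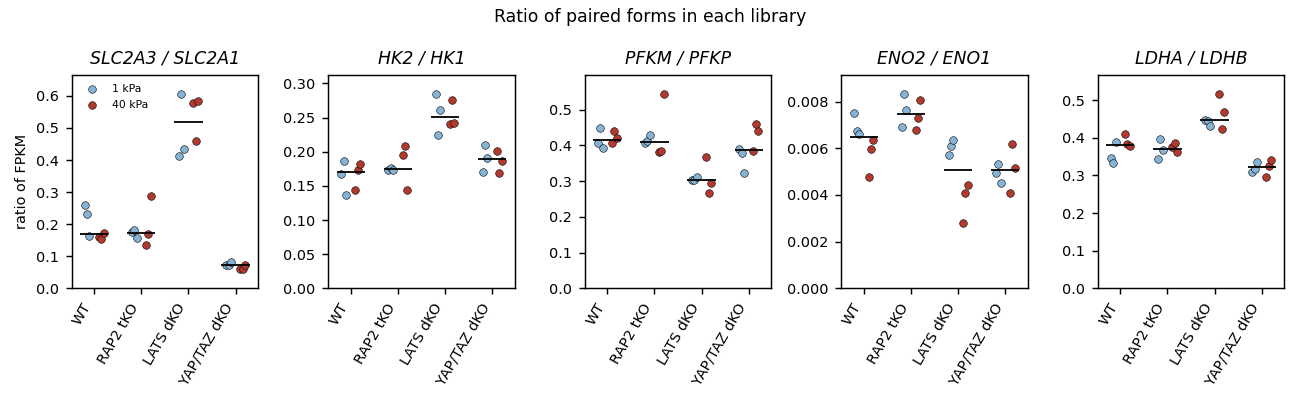
Ratio of FPKM of 2 forms in each library (points; blue 1 kPa, red 40 kPa) by genotype, with the median of 6 libraries as a line, on axes that start at 0. In the first panel the LATS dKO libraries lie at 0.413 to 0.606 and the YAP/TAZ dKO libraries at 0.0613 to 0.0825, on either side of WT.

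Position in the genome was compared because 6 of the members tested lie on chromosome 12. These are GAPDH, TPI1, ENO2, SLC2A3, LDHB and PFKM, and in LATS dKO cells 5 were lower and SLC2A3 higher, in YAP/TAZ dKO cells 6 were lower, and in RAP2 tKO cells 0 were called. Of the 870 chromosome 12 genes tested, 24.4% were lower and 13.9% higher in LATS dKO, 48.2% lower and 7.7% higher in YAP/TAZ dKO, and 16.8% called in RAP2 tKO cells, where over all genes 17.8% were lower in LATS dKO and 27.0% in YAP/TAZ dKO cells. For each member the median change of the other genes tested within 5 Mb on either side was taken. On chromosome 12 these medians were below 0 in LATS dKO (-0.13 to -0.17) and YAP/TAZ dKO cells (-0.13 to -0.29). GAPDH, TPI1, ENO2 and SLC2A3 lie close together (6643093 to 8088871 in hg19). Their windows hold mostly the same genes and are not separate comparisons. In LATS dKO cells GAPDH (-0.39) and PFKM (-0.57) lay below the lower quartile of their neighbours (-0.28 and -0.27), and LDHB (-0.15) lay within the quartiles. In YAP/TAZ dKO cells LDHB changed by -0.26 where its 23 neighbours had a median of -0.26, and PFKM, TPI1, GAPDH and ENO2 also lay within the quartiles of theirs. SLC2A3 lay far outside in both lines (neighbours' medians -0.17 and -0.19).
Elsewhere, LDHA (-0.48) lay below neighbours that were also lower in YAP/TAZ dKO cells (-0.26), while GPI (-0.31) and PFKP (-0.29) fell where neighbours were slightly higher (0.08 and 0.13). Other called members off chromosome 12 lay within the quartiles of their neighbours. In LATS dKO cells this was ENO1 (-0.21, neighbours' median -0.24). In RAP2 tKO cells these were GPI (-0.16, median -0.09) and PDK3 (0.20, median 0.12). In YAP/TAZ dKO cells they were P4HA2 (-0.19, median -0.21), PGK1 (0.15, median 0.21) and NDRG1 (0.44, median 0.25 of 9 neighbours). In all, 8 of the 10 called members in LATS dKO, 9 of 11 in RAP2 tKO and 9 of 17 in YAP/TAZ dKO cells lay outside the quartiles of their neighbours. By construction the neighbours themselves lie outside their quartiles about as often as within, and called members were picked for larger changes. The share of all called genes outside such quartiles was not taken, so these counts do not set the members apart. The neighbours' part in the members' changes was not tested.

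**Figure D4:**
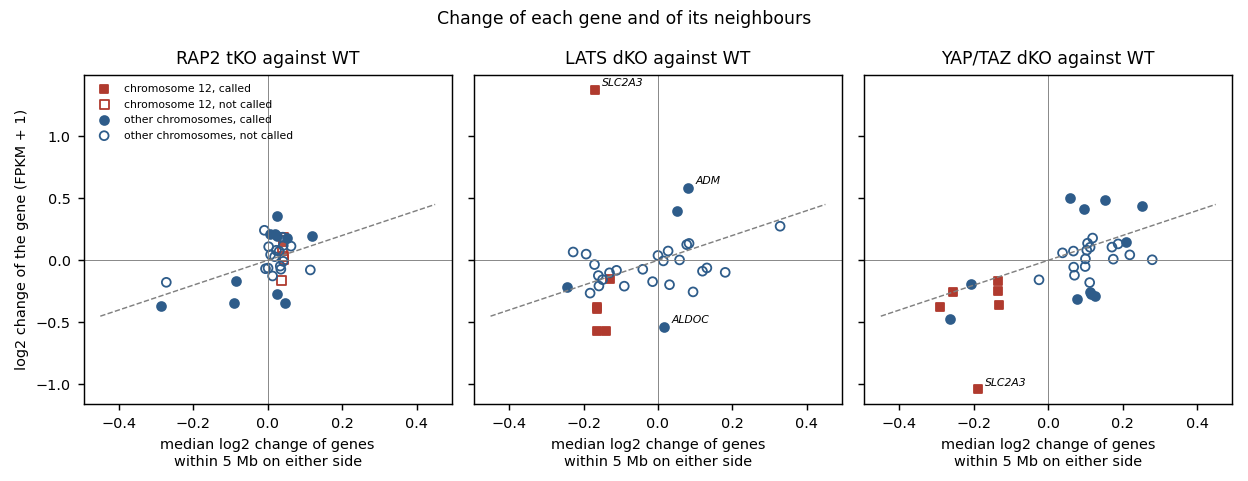
Change of each member tested (vertical axis, log2 of FPKM + 1) against the median change of the other genes within 5 Mb on either side (horizontal axis), in each knockout line against WT; red squares are on chromosome 12, filled symbols are called, the dashed line marks equality, and genes more than 0.5 from their neighbours are named. SLC2A3 stands far above its neighbours in LATS dKO and far below them in YAP/TAZ dKO cells, and several chromosome 12 genes sit near the line in YAP/TAZ dKO cells.

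Other genes of these pathways were counted from lists. Of 15 tested genes of the HIF machinery, 1 was higher and 3 lower in RAP2 tKO, 2 higher and 4 lower in LATS dKO, and 5 higher and 5 lower in YAP/TAZ dKO cells. Over all genes, 16.0% were called in RAP2 tKO, 33.9% in LATS dKO and 50.6% in YAP/TAZ dKO cells. HIF1A, the oxygen-regulated subunit, averaged 65.7 ± 3.38 and 68.1 ± 3.59 FPKM in WT (SD, n = 3, on 1 and 40 kPa) and 43.9 ± 2.49 and 42.7 ± 4.11 FPKM in YAP/TAZ dKO cells. It fell there by 0.62 (adjusted p = 1.01e-07), and it rose in LATS dKO (0.29, adjusted p = 0.00104) and RAP2 tKO cells (0.24, adjusted p = 0.0115). HIF1A is regulated mainly through the stability of its protein, which was not measured. EPAS1, the HIF2 alpha subunit, fell in LATS dKO (-0.65, adjusted p = 0.00101) and RAP2 tKO cells (-0.51, adjusted p = 0.0139). It rose in YAP/TAZ dKO cells (0.50, adjusted p = 0.00473), a value named outside the rule for other lists, after it was seen. VHL rose in YAP/TAZ dKO (0.50, adjusted p = 3.49e-10) and LATS dKO cells (0.19, adjusted p = 1.76e-04).

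Of 38 other HIF targets tested, 8 were higher and 12 lower in LATS dKO cells, 12 higher and 13 lower in YAP/TAZ dKO cells, and 4 higher and 6 lower in RAP2 tKO cells. Over all genes, 33.9%, 50.6% and 16.0% were called in these lines. The list medians were -0.11, -0.10 and -0.06, and those of all genes -0.01, 0.001 and -0.0002. DDIT4, an inhibitor of mTORC1, rose in YAP/TAZ dKO cells by 2.83 (adjusted p = 1.24e-15), from 10.3 ± 1.11 and 4.81 ± 0.29 FPKM to 59.8 ± 2.43 and 53.5 ± 0.89 FPKM (SD, n = 3, on 1 and 40 kPa). On stiff hydrogels DDIT4 fell in WT (-0.95, adjusted p = 1.61e-04) and BHLHE40, a transcriptional repressor, fell with it (-0.52, adjusted p = 0.00617). They were the 2 calls of this list in WT, where 0.986% of all genes were called. In RAP2 tKO cells 1 was higher and 5 were lower on stiff hydrogels, where 3.87% of all genes were called. DDIT4 (-1.60, limma adjusted p = 8.88e-08), BHLHE40 (-0.87) and CXCR4 (-0.57) fell there and DUSP1 (0.54) rose. In LATS dKO and YAP/TAZ dKO cells 0 were called, against 0.708% and 0.347% of all genes. The DDIT4 response differed from WT in YAP/TAZ dKO cells (0.80, limma adjusted p = 0.0269), where 0.392% of all genes were called. PLOD2, a collagen lysyl hydroxylase, fell in YAP/TAZ dKO cells (-1.36, adjusted p = 5.63e-11), from 47.8 ± 4.72 and 42.5 ± 1.54 FPKM to 16.6 ± 1.33 and 17.3 ± 0.65 FPKM. PLIN2, a lipid droplet coat protein, was low throughout and fell in RAP2 tKO (-1.03, adjusted p = 2.55e-09), LATS dKO (adjusted p = 5.35e-10) and YAP/TAZ dKO cells (-1.12, adjusted p = 4.97e-11). Of 14 other tested genes of glycolysis, 0 were higher and 1 lower in RAP2 tKO, and 3 were higher and 2 lower in each of the other lines. The shares of all genes called were those given above for each line. LDHC, the testis form of lactate dehydrogenase, fell in YAP/TAZ dKO cells (-1.62, adjusted p = 4.34e-09), from 7.40 ± 1.88 and 7.53 ± 0.38 FPKM to 1.93 ± 0.32 and 1.56 ± 0.11 FPKM.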

How the data were processed

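Messenger RNA of HEK293A cells was measured in 24 libraries, 3 in each of 8 groups taken from the labels. Per the labels' protocols, TRIzol was used for RNA and a stranded mRNA kit (set A or B) for libraries. The set of each library is unknown here, so it could not be tested as a batch. The submitters' processing notes name STAR 2.4.2a, Cufflinks 2.2.1 and hg19. The authors deposited gene FPKM values per library, 60350 entries under 58266 symbols. The sources used here give no annotation release, strand setting or treatment of reads with several matches, so values of overlapping or antisense genes may be mixed. Symbols on several entries (338) were summed, and 92 whose status was not usable in some library were left out. Depth was read from the deposited confidence intervals of 750 to 916 genes per library with 10 to 60 fragments, a slight underestimate.

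On log2(FPKM + 1), with no scaling, limma 3.58.1 in R 4.3.3 was fitted to the 15828 genes that reached 1 FPKM in 3 or more libraries. Each group had its own mean (16 residual degrees of freedom), the spread followed a trend on the mean level, and all tests were two-sided. All groups shared the same estimate of a gene's spread, so a library of any group entered the SE of every contrast of that fit. Benjamini-Hochberg adjustment ran within each of 10 contrasts and a call was an adjusted p below 0.05. The script was tested on simulated data. Gene GC content came from a GRCh38 annotation by identifier, for 98.07% of tested genes. The labels give groups the same replicate numbers. Same-numbered libraries correlated at -0.154 to 0.084 over 30 pairs, so the numbers were not taken to pair samples.

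All members could be named, with values by library for those called. From each other list up to 4 called genes per contrast with the smallest p were open to naming, and counts stand for the rest. The members and lists were chosen with earlier results of these data known. The pairs of forms, the neighbourhoods and the promoters shown were chosen after seeing the data. Alternatives were another pseudocount, no filter, scaling, GC correction, a replicate block, fits of the compared groups alone, either stiffness alone, and leaving out libraries. P-values measure the spread between these libraries, and whether they were separate cultures is given only by the words biological replicates in the design text.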

Additional observations from a re-analysis of the deposited data

How the results depend on the processing

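Of the 41 member calls, 19 held in all alternatives run and 0 changed direction. Leaving out the 2 GC-skewed libraries gave these numbers of members called: 4 for stiffness in WT and in RAP2 tKO, 1 in YAP/TAZ dKO, 18 for RAP2 tKO and 18 for LATS dKO against WT, and 4 and 1 for the difference of the stiffness response in LATS dKO and YAP/TAZ dKO. With GC correction the stiffness counts were 1 in WT, 4 in RAP2 tKO and 0 in LATS dKO; with scaling they were 3 in RAP2 tKO and 1 in LATS dKO, and 1 for the difference in LATS dKO. With no filter, 0 were called for stiffness in LATS dKO and 5 in RAP2 tKO against WT. Fitting the compared groups alone gave 0 for stiffness in RAP2 tKO and LATS dKO, 7 for RAP2 tKO against WT and 1 for the difference in YAP/TAZ dKO. For LATS dKO against WT, 10 became 12 with those groups alone, 13 with GC correction and 9 with no filter. For YAP/TAZ dKO against WT, 17 became 24 with those groups alone, 20 with GC correction and 15 with no filter. RAP2 tKO against WT gave 3 on 1 kPa alone and 5 on 40 kPa alone. The replicate block left 1 member called for stiffness in LATS dKO cells (57 genes in all) and changed no other member count; 6 of 12 soft libraries correlated best with their own number. Leaving out each replicate gave 1 to 4 members for stiffness in RAP2 tKO, 0 to 2 in LATS dKO, 7 to 11 for RAP2 tKO against WT and 0 to 1 for the difference in LATS dKO. The cause was not tested.

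Over all genes, calls for stiffness were 156 in WT (51 higher, 105 lower), but 202 with scaling (127 higher, 75 lower), 432 with GC correction, 1006 without the 2 libraries and 45 with both groups alone. In RAP2 tKO 612 (156 higher, 456 lower) became 685 with scaling (374 higher, 311 lower), 966 with GC correction, 325 with no filter and 8 alone. In LATS dKO 112 (14 higher, 98 lower) became 49 with scaling (15 higher, 34 lower), 71 with GC correction, 472 without the 2 libraries and 2 alone. In YAP/TAZ dKO 55 became 95 with GC correction and 391 without the 2 libraries. RAP2 tKO against WT went from 2528 to 4362 without the 2 libraries, 1077 on 1 kPa alone and 1432 on 40 kPa alone, and LATS dKO against WT from 5364 to 3450 and 3530 on either stiffness. LATS dKO against WT also gave 6140 with GC correction, 4977 with no filter and 5206 with the compared groups alone. YAP/TAZ dKO against WT went from 8008 to 9065 with GC correction, 7921 with no filter, 9699 without the 2 libraries and 9639 with the compared groups alone. On 1 and 40 kPa alone it gave 6006 and 5964. For the difference of the stiffness response, RAP2 tKO went from 8 to 3 with a pseudocount of 0.1, 20 without the 2 libraries and 4 alone. LATS dKO went from 10 (3 higher, 7 lower) to 24 with no filter, 20 with scaling (3 higher, 17 lower), 38 with GC correction, 211 without the 2 libraries and 5 alone. YAP/TAZ dKO went from 62 (41 higher, 21 lower) to 74 with scaling (38 higher, 36 lower), 155 with GC correction, 413 without the 2 libraries and 273 alone.

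None of the 41 member calls made with all libraries changed sign. Of the 102 genotype values of members, 7 changed sign on 1 kPa alone and 14 on 40 kPa alone, 0 of them called on both stiffnesses together or on that stiffness. Those on 40 kPa include ENO1 (-0.013) and SLC2A1 (-0.054) in YAP/TAZ dKO, SLC2A1 (-0.17) in LATS dKO, and GAPDH (-0.084), PFKL (-0.10) and PGK1 (0.022) in RAP2 tKO cells. ENO1 in YAP/TAZ dKO cells was called on 1 kPa alone (0.13, limma adjusted p = 0.0286). All of these but SLC2A1 in LATS dKO cells were called without the 2 GC-skewed libraries, with the sign opposite to that on 40 kPa. Leaving out single libraries moved GAPDH in RAP2 tKO cells between -0.0301 and 0.0594, PFKL between -0.0376 and 0.292, and SLC2A1 on 40 against 1 kPa in RAP2 tKO between -0.119 and 0.311. The RAP2 tKO log2 ratios that changed sign were, over single libraries left out, SLC2A3 to SLC2A1 (-0.197 to 0.0376), PFKM to PFKP (-0.0580 to 0.0437, and -0.0580 without the 2 GC-skewed libraries) and LDHA to LDHB (-0.0346 to 0.0258, and 0.0045 without those 2). FPKM hold no counts, so no counting interval is given, and depth limits PFKFB4, ANKRD37, SLC16A3 and CA9 most.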

Other observations

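The citric acid cycle was counted from a list of 20 genes, all tested. In YAP/TAZ dKO cells 1 was higher and 12 were lower than in WT, with a list median of -0.21 against 0.001 for all genes, where 50.6% of all genes were called. OGDH, a subunit of the oxoglutarate dehydrogenase complex, averaged 31.6 ± 1.22 and 38.2 ± 0.91 FPKM in WT (SD, n = 3, on 1 and 40 kPa) and 17.2 ± 1.58 and 20.6 ± 1.63 FPKM in YAP/TAZ dKO cells (-0.85, limma adjusted p = 7.95e-10). SDHD, a membrane anchor of succinate dehydrogenase, fell from 34.1 ± 1.44 and 33.7 ± 1.12 FPKM to 18.7 ± 0.77 and 19.6 ± 1.46 FPKM (-0.79, limma adjusted p = 1.64e-09). CS, the citrate synthase, fell by 0.34 there (limma adjusted p = 1.29e-06). In LATS dKO cells 5 genes of the cycle were higher and 5 lower, and FH, the fumarase, rose by 0.82 (limma adjusted p = 1.36e-07), from 35.5 ± 4.04 and 34.4 ± 1.81 FPKM to 62.9 ± 3.94 and 62.4 ± 9.26 FPKM. In RAP2 tKO cells 0 were higher and 3 lower. Over all genes, 33.9% were called in LATS dKO and 16.0% in RAP2 tKO cells.

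Of 11 tested genes of the pyruvate dehydrogenase complex, its regulators and the mitochondrial pyruvate carrier, 5 were higher and 4 lower in YAP/TAZ dKO cells. Over all genes, 50.6% were called in that line. DLD, the shared dihydrolipoyl dehydrogenase, fell from 82.6 ± 1.17 and 88.0 ± 1.11 FPKM to 51.3 ± 2.11 and 53.0 ± 0.42 FPKM (-0.70, limma adjusted p = 3.03e-09), and DLAT fell by 0.34 (limma adjusted p = 4.48e-09). Of 8 genes of the pentose phosphate pathway, 2 were higher and 5 lower in YAP/TAZ dKO cells, against 50.6% of all genes called. H6PD, the form in the endoplasmic reticulum, fell by 0.79 (limma adjusted p = 3.62e-10), and PGD, the cytosolic phosphogluconate dehydrogenase, rose by 0.41 (limma adjusted p = 9.44e-07). PGD fell by 0.40 in LATS dKO cells (limma adjusted p = 2.91e-06). The knockout comparisons share their WT libraries.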
